A study of Saccharomyces cerevisiae with 12 samples.

Results

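The *PRM* genes of *Saccharomyces cerevisiae* (*PRM1* to *PRM10*) are named as pheromone-regulated membrane protein genes, because their transcripts rise when haploid cells sense mating pheromone and their sequences predict proteins with membrane-spanning stretches. They were taken by name from the platform annotation. All 10 genes were on the array, with 11 probe sets among the 10, out of 5449 genes that could be tested. Transcripts were measured in 4 groups of 3 arrays each. These were *sus1*Δ cells with Congo red (CR), *sus1*Δ cells without it, WT cells with CR and WT cells without it. The WT strain is BY4741, a haploid laboratory strain of mating type a (MATa), and the *sus1*Δ strain is BY4741 with *SUS1* replaced by the KanMX4 drug resistance marker. Both grew in rich YPD medium at 24°C, and no pheromone treatment is described. CR, a chitin-binding dye that weakens the wall, was given at 30 μg/mL for 3 h by the sample titles and for 2 h by the deposited design text. Each of 3 cultures per strain was divided into a treated and an untreated part. The arrays of a strain that share a number were taken to come from 1 culture, which the sample titles do not state. Culture numbers link nothing between the strains.

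In haploid cells, pheromone binding to its receptor on the surface starts a G protein and a MAP kinase cascade that ends at the transcription factor Ste12. Its targets carry the cell through agglutination, cell fusion and the fusion of the nuclei. CR activates another MAP kinase pathway, the cell wall integrity (CWI) pathway, in which the kinase Slt2 activates the transcription factor Rlm1. *PRM5* is known to respond to both pathways. Sus1 is a subunit of the coactivator complex SAGA and of the mRNA export complex TREX-2.

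The values are log2 signals, on which a step of 1 is a doubling. They were compared with limma, and a gene was counted as changed at a Benjamini-Hochberg adjusted p under 0.05 over all 5449 genes. On the *sus1*Δ arrays the *SUS1* probe set lay at 2.55 to 3.34, against 7.90 to 8.66 on the WT arrays, in keeping with the labels. The *sus1*Δ arrays were the more alike, with a median SD of 0.0784 with CR and 0.0712 without, against 0.148 in both WT groups. The lowest 5% of probe sets ended at 5.36 to 5.49 on *sus1*Δ arrays and at 4.53 to 4.80 on WT arrays, so dim probe sets had a higher floor in the mutant. *PRM2* and *PRM6* lay under this limit on all 6 *sus1*Δ arrays, and on both arrays of WT culture 3. Summed over the 7 MATa markers, the signal was 14.17 to 14.37 in *sus1*Δ, against 13.61 to 14.79 in WT cells. The lowest WT sums were those of culture 3.

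WT culture 3 stood apart from WT cultures 1 and 2 for these genes. *PRM1*, *PRM2*, *PRM3* and *PRM6* were lower and *PRM7* was higher on its arrays, with and without CR, by at least 2-fold in each case. Comparisons with WT use all 12 arrays unless stated. Values without the 2 arrays of culture 3 are added for every member whose call they change, and for some of the other genes. That omission was chosen after these values were seen, so its p-values describe the remaining 10 arrays and are no independent test. No fit left out another whole culture, and which WT cultures show the usual state was not tested.

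**Figure D1:**
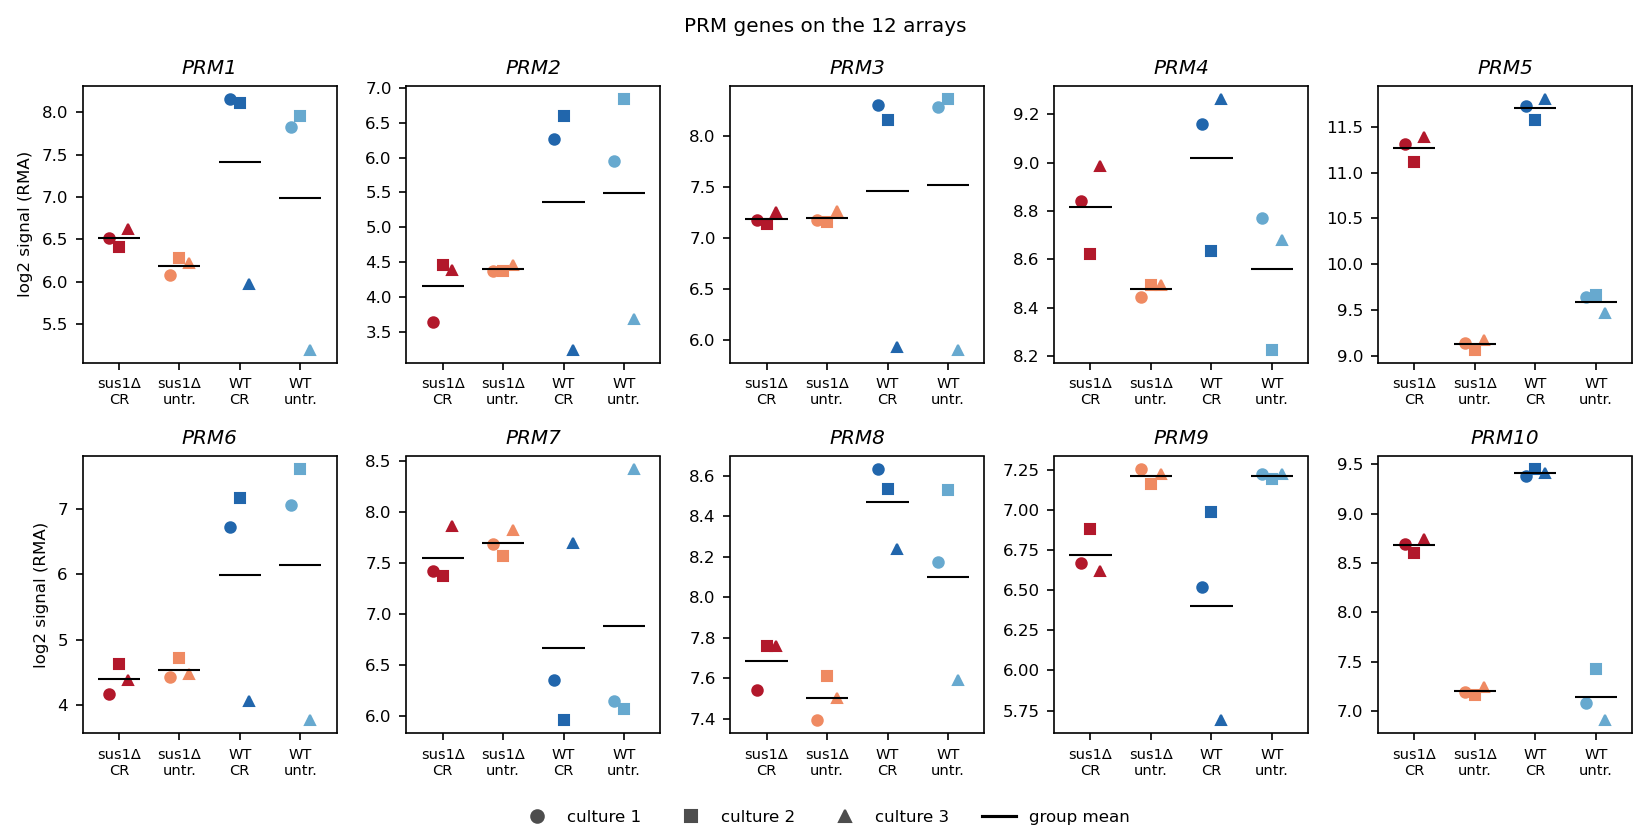
Log2 signal of each *PRM* gene on the 12 arrays, 1 panel per gene with its own vertical axis. Symbols mark the culture number within a strain and lines the mean of 3 arrays. *PRM5* and *PRM10* part by CR in both strains, while WT culture 3 (triangles) leaves the other WT cultures for *PRM1*, *PRM2*, *PRM3*, *PRM6* and *PRM7*.

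*PRM5* (YIL117C, chromosome IX, 140613 to 141569 of the R64 assembly) rose with CR in every culture of both strains. Its protein is a membrane protein of unknown biochemical function, and its promoter is one of those the study examined by chromatin immunoprecipitation. The oligonucleotides below define what was probed at this gene. The BOX pair bounds the promoter region that holds the Rlm1 site, and the other pair measured the transcript by RT-qPCR.
PRM5-BOX UP: ttcttgctttctctttttggct
PRM5-BOX DW: gcgttcctttgaatgatctca
YIL117C-UP: agacataaggaaacccgcaaaaa
YIL117C-DW: acgatttacgctaccatcactttct

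In *sus1*Δ cells *PRM5* read 11.31, 11.12 and 11.39 with CR, against 9.14, 9.06 and 9.17 without it. In WT cells it read 11.73, 11.58 and 11.81 with CR, against 9.64, 9.66 and 9.47 without it. All 4 groups were separate, with CR arrays above untreated arrays and, within each condition, *sus1*Δ arrays below WT arrays. The log2 change with CR was 2.15 in *sus1*Δ (4.44-fold, standard error 0.09, adjusted p = 2.05e-07 from limma) and 2.12 in WT cells (4.34-fold, standard error 0.09, adjusted p = 6.6e-08 from limma). The difference between the 2 responses was 0.03, with a 95% interval of -0.258 to 0.324. *PRM5* was lower in *sus1*Δ than in WT cells by a similar amount in both conditions, at -0.43 with CR (limma, adjusted p = 0.00634) and -0.47 without it (limma, adjusted p = 0.00584). Since a bulk array reads pooled cells, fewer cells with the transcript and less transcript per cell cannot be told apart here.

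*PRM10* (YJL108C, chromosome X, 217705 to 218856) encodes a predicted protein with several membrane-spanning stretches, and it was the other member that rose with CR. In *sus1*Δ cells it read 8.70, 8.60 and 8.74 with CR, against 7.19, 7.16 and 7.24 without it. The WT arrays gave 9.38, 9.45 and 9.41 with CR, against 7.08, 7.42 and 6.90 without it. The strains overlapped in untreated cells and were separate after CR, where every *sus1*Δ array lay below every WT array. CR raised *PRM10* 2.78-fold in *sus1*Δ (log2 1.48, standard error 0.11, adjusted p = 1.65e-05 from limma) and 4.85-fold in WT cells (log2 2.28, standard error 0.11, adjusted p = 1.31e-07 from limma). In CR-treated cells *sus1*Δ minus WT was -0.74 (adjusted p = 0.000864 from limma), and in untreated cells it was 0.06.

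Per culture, the change of *PRM10* with CR was 1.503, 1.433 and 1.493 in *sus1*Δ, against 2.297, 2.027 and 2.509 in WT cells, so no *sus1*Δ culture reached the smallest WT change. The difference between the responses was -0.80 on the log2 scale (standard error 0.16, 95% interval -1.14 to -0.459). It did not pass the test over all genes (adjusted p = 0.115 from limma), and passed it when each culture served as its own control (adjusted p = 0.0394 from limma with culture as a block). By the unblocked test 0.0734% of all genes had a smaller and 0% a larger change in *sus1*Δ. With the block these shares were 0.606% and 0.22%. Without WT culture 3 the difference was -0.69 (adjusted p = 0.122 from limma). No other member passed this test, with or without the block.

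**Figure D2:**
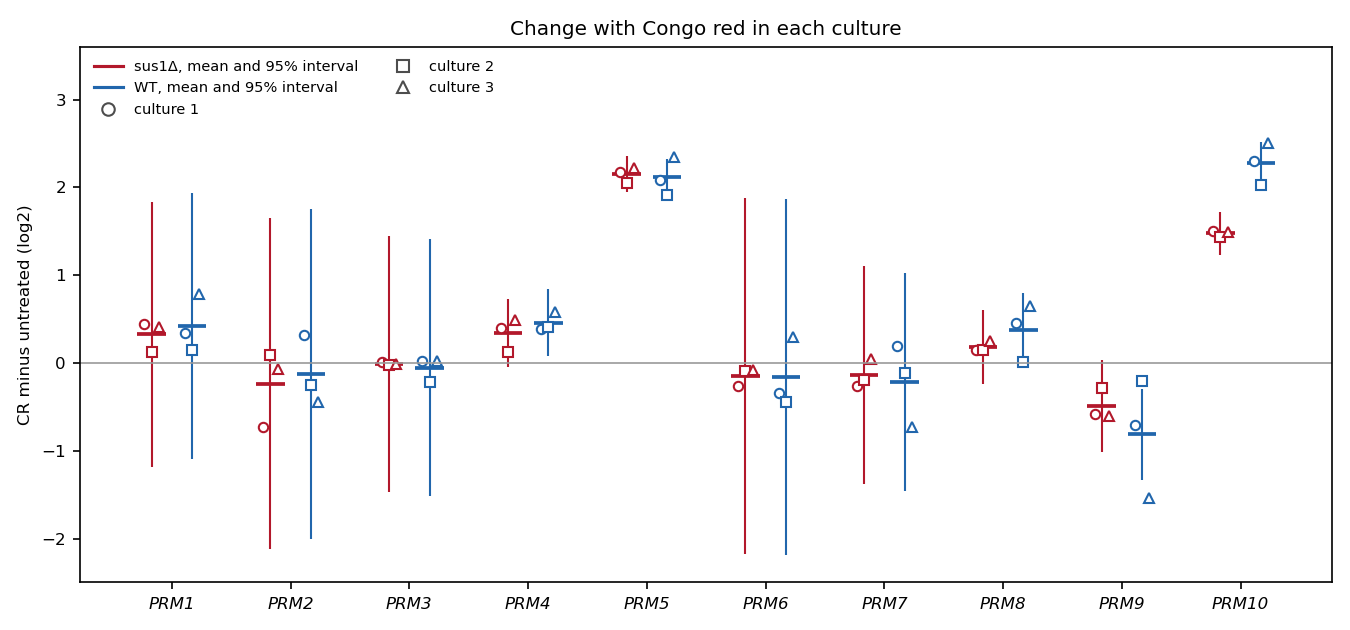
CR minus untreated log2 signal of each *PRM* gene. Symbols are the 3 cultures of each strain, thick lines the means and thin lines the 95% intervals from limma. All 6 cultures lie above 1.4 for *PRM5* and *PRM10*, and the 3 *sus1*Δ changes of *PRM10* lie below the 3 WT changes.

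Chromosomal and sequence relatives of these genes were followed as a list of 7 with a probe set. *YNL058C*, the paralog of *PRM5*, rose in both strains, by 1.36 in *sus1*Δ (adjusted p = 0.00012 from limma) and by 1.24 in WT cells (adjusted p = 6.22e-05 from limma). *YJL107C*, the gene next to *PRM10*, shares 4 annotated bases with it and rose by 1.24 in *sus1*Δ (adjusted p = 0.00667 from limma) and by 1.77 in WT cells (adjusted p = 0.00016 from limma). Without CR, however, *YJL107C* was higher in *sus1*Δ cells (6.78, 6.69 and 6.69) than in WT cells (5.06, 5.84 and 6.07), a log2 difference of 1.06 (adjusted p = 0.00426 from limma), while *PRM10* overlapped between the strains. *KCH1*, the paralog of *PRM6* that encodes a potassium transporter, rose with CR by 0.76 in WT cells (adjusted p = 0.00163 from limma) and was not called in *sus1*Δ cells, but the difference between its responses was not called either (-0.49, adjusted p = 0.429 from limma). *UIP3* also rose in WT cells, by 0.34, a call lost without WT culture 3. Of the 7, 2 rose in *sus1*Δ and 4 in WT cells, and none fell. Of all genes, 1.39% rose and 0.147% fell in *sus1*Δ, and 9.4% rose and 9.01% fell in WT cells. In CR-treated cells *KCH1* (-0.47) and *UIP3* (-0.50) were lower in *sus1*Δ than in WT cells and none of the 7 was higher. In untreated cells *YJL107C* and *BSC1*, a neighbor of *PRM7* whose probe set gave 4.02 to 4.37 in *sus1*Δ, against 3.23 to 3.36 in WT cells, were higher in *sus1*Δ. Every *BSC1* value lay under the low-signal limit of its array. Between the strains, 16.8% of all genes were higher and 10.9% lower in *sus1*Δ with CR, and 14.3% and 7.08% without it. The 7 relatives without WT culture 3 gave 2 higher and 2 lower with CR, *YJL107C* (0.63) and *MST27* (0.47) being the higher (all genes, 17.6% and 14%). Without CR that fit gave 2 higher and 1 lower (all genes, 20.9% and 10.4%). There *BSC1* was not called, *MST27* (0.69) was higher and *UIP3* (-0.34) was lower.

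As a description over the 12 arrays, the genes whose signals were most like that of *PRM5* were *SRL3* (Pearson's r 0.997), *YNL058C* (0.988), the MAP kinase gene *SLT2* (0.981), the wall mannoprotein gene *CWP1* (0.98) and the mannosyltransferase gene *KTR2* (0.979). Those most like *PRM10* were *YPL088W*, *KTR2*, *CRG1* and *PTP2*, which encodes a MAP kinase phosphatase (0.993 each), followed by *AFR1* (0.99). The r between *PRM5* and *PRM10* was 0.972. These arrays share the 2 strains and the 2 treatments, so any gene that rises with CR in both strains scores high.

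The members known for fusion of mating cells gave another pattern, in which WT cultures differed more than treatments did. *PRM1* (YNL279W, chromosome XIV, 110917 to 112902) encodes a protein of the plasma membrane that acts when mating cells fuse. In *sus1*Δ cells it read 6.51, 6.41 and 6.63 with CR, against 6.07, 6.28 and 6.22 without it. In WT cells it read 8.16, 8.11 and 5.98 with CR, against 7.83, 7.96 and 5.19 without it. WT cultures 1 and 2 lay above every *sus1*Δ array and WT culture 3 lay below every *sus1*Δ array of its condition, so the strains overlapped. With all arrays, *sus1*Δ minus WT was -0.90 with CR (adjusted p = 0.354 from limma) and -0.80 without it (adjusted p = 0.432 from limma). Without WT culture 3 it was -1.62 with CR (adjusted p = 6.89e-06 from limma) and -1.71 without it (adjusted p = 5.3e-06 from limma).

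*PRM2* (YIL037C, chromosome IX, 283029 to 284999) and *PRM3* (YPL192C, chromosome XVI, 182655 to 183056) encode proteins of karyogamy, the fusion of the nuclei, and Prm3 sits in the nuclear envelope. *PRM2* read 3.65, 4.46 and 4.39 with CR and 4.37, 4.37 and 4.46 without it in *sus1*Δ cells. WT values were 6.26, 6.59 and 3.24 with CR and 5.95, 6.84 and 3.69 without it. Only WT cultures 1 and 2 were clear of the low-signal limit for *PRM2*, so the sizes of its differences are limited by that floor. *PRM3* read 7.18, 7.14 and 7.25 with CR and 7.17, 7.16 and 7.27 without it in *sus1*Δ cells. In WT cells it read 8.31, 8.16 and 5.93 with CR and 8.29, 8.37 and 5.90 without it. The *sus1*Δ arrays of *PRM3* were tightly grouped between the WT cultures, more than 1 below cultures 1 and 2 in the mean and more than 1 above culture 3. With all arrays neither gene was called between the strains. Without WT culture 3, *PRM2* differed by -2.26 with CR (adjusted p = 0.000387 from limma) and by -1.99 without it (adjusted p = 0.00082 from limma), and *PRM3* by -1.04 with CR (adjusted p = 2.84e-05 from limma) and by -1.13 without it (adjusted p = 2.05e-05 from limma).

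*PRM6* (YML047C, chromosome XIII, 180017 to 181075), also called *KCH2*, encodes a potassium transporter that in pheromone-treated cells acts together with Kch1 in calcium influx. In *sus1*Δ cells it read 4.17, 4.64 and 4.39 with CR, against 4.43, 4.72 and 4.47 without it. On WT arrays it was 6.73, 7.17 and 4.06 with CR, against 7.07, 7.61 and 3.76 without it. In untreated cells this was the widest spread between WT cultures among the 10, and the *sus1*Δ arrays again lay near WT culture 3. The strain difference with all arrays was -1.59 with CR (adjusted p = 0.224 from limma) and -1.60 without it (adjusted p = 0.241 from limma). Leaving out WT culture 3, it was -2.55 with CR (adjusted p = 3.86e-05 from limma) and -2.80 without it (adjusted p = 2.05e-05 from limma). Both low groups lie at the floor of the array, which limits these sizes.

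*PRM7* (YDL039C, chromosome IV, 381985 to 384081) ran the other way. It encodes a predicted membrane protein and had 2 probe sets, of which the brighter stands for the gene. In *sus1*Δ cells it read 7.43, 7.37 and 7.86 with CR, against 7.69, 7.57 and 7.82 without it. In WT cells it read 6.35, 5.96 and 7.70 with CR, against 6.15, 6.07 and 8.42 without it. WT cultures 1 and 2 were below every *sus1*Δ array, while WT culture 3 lay among the *sus1*Δ arrays with CR and above all of them without it. The dimmer probe set also read lowest in WT cultures 1 and 2, with 6.19 to 6.88 on the *sus1*Δ arrays, 4.65 to 5.25 in WT cultures 1 and 2 and 5.95 with CR and 6.81 without it in WT culture 3. By this probe set WT culture 3 lay below the *sus1*Δ arrays with CR and among them without it. The strain difference was 0.89 with CR (adjusted p = 0.266 from limma) and 0.81 without it (adjusted p = 0.332 from limma) with all arrays. With WT culture 3 left out it was 1.40 with CR (adjusted p = 0.00025 from limma) and 1.58 without it (adjusted p = 0.000123 from limma).

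None of *PRM1*, *PRM2*, *PRM3*, *PRM6* and *PRM7* was called with CR in either strain, where the log2 changes were -0.24 to 0.33 in *sus1*Δ, against -0.21 to 0.42 in WT cells. Their intervals were wide, because limma uses 1 variance per gene for all groups and WT culture 3 enters it. With each culture as its own control, *PRM1* was called in WT cells (0.42, adjusted p = 0.0274 from limma with culture as a fixed block). It was not called with culture as a random block (adjusted p = 0.502 from limma) or without WT culture 3 (0.24, adjusted p = 0.132 from limma). Over the 12 arrays, pairs among *PRM1*, *PRM2*, *PRM3* and *PRM6* had r of 0.886 to 0.973, and each had an r with *PRM7* of -0.967 to -0.878. These r rest on the same contrast of WT cultures 1 and 2 with the other arrays and are given with no test.

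**Figure D3:**
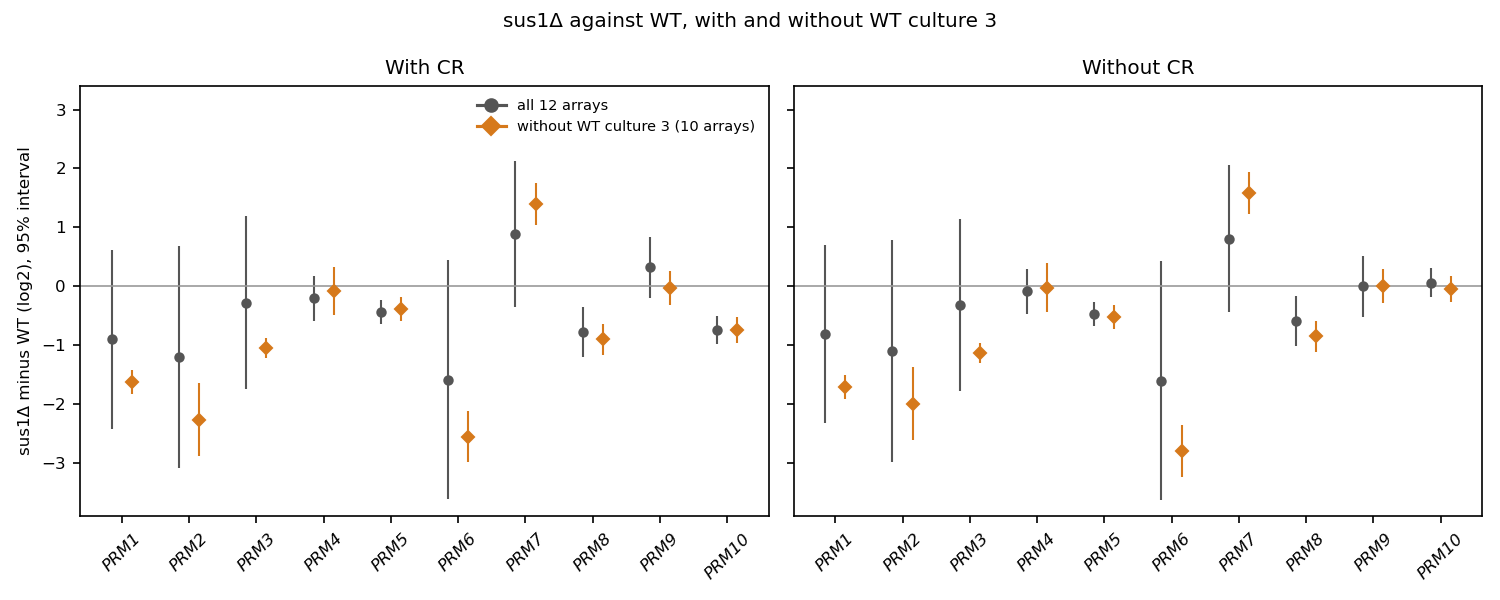
Log2 difference *sus1*Δ minus WT of each *PRM* gene with CR (left) and without CR (right), with 95% intervals from limma. Circles use all 12 arrays and diamonds the 10 arrays without WT culture 3. The diamonds of *PRM1*, *PRM2*, *PRM3* and *PRM6* lie below -1 and those of *PRM7* above 1, while the intervals from all arrays include 0 for these 5 genes.

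*PRM8* (YGL053W, chromosome VII, 402589 to 403302) and *PRM9* (YAR031W, chromosome I, 186836 to 187732) belong to the DUP240 family of small membrane proteins, with *MST27*, *MST28* and *UIP3*. Members of this family are similar in sequence, and whether their probe sets share signal was not tested. *PRM8* read 7.54, 7.76 and 7.76 with CR, against 7.39, 7.61 and 7.50 without it, in *sus1*Δ cells. For WT the values were 8.63, 8.54 and 8.24 with CR, against 8.17, 8.53 and 7.59 without it. With CR every *sus1*Δ array lay below every WT array, whereas the strains overlapped without CR because of WT culture 3. The strain difference was -0.78 with CR (adjusted p = 0.0125 from limma) and -0.59 without it (adjusted p = 0.0487 from limma). Both were clearer without WT culture 3, at -0.90 (adjusted p = 0.000564 from limma) with CR and -0.85 without it (adjusted p = 0.000825 from limma). The untreated call with all arrays was lost in 10 of 12 fits that left out 1 array. With culture as a fixed block, the change of *PRM8* with CR in WT cells also passed (0.37, adjusted p = 0.0342 from limma), but not with a random block (adjusted p = 0.0643 from limma).

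*PRM9* was the only member called lower with CR. In *sus1*Δ cells it read 6.67, 6.88 and 6.62 with CR, against 7.25, 7.16 and 7.23 without it. In WT cells it read 6.52, 6.99 and 5.69 with CR, against 7.22, 7.19 and 7.22 without it. The treated arrays lay below the untreated arrays in both strains, and the untreated values of the strains were alike. In WT cells CR lowered the log2 signal by 0.81 (standard error 0.24, adjusted p = 0.0341 from limma). The size rests on WT culture 3, since without it the change was -0.45 (adjusted p = 0.0558 from limma). The call was near the threshold and was lost in 6 of 12 fits that left out 1 array, arrays of other cultures included, but kept without the CR array of WT culture 3 (-0.46, adjusted p = 0.0314 from limma). In *sus1*Δ cells the change was -0.49 (adjusted p = 0.517 from limma). WT culture 3 enters the variance of that test too, and without it the adjusted p of the *sus1*Δ change was 0.0514 (limma). The strain difference was not called in either condition.

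*PRM4* (YPL156C, chromosome XVI, 255913 to 256767), which encodes another predicted membrane protein, differed little. It read 8.84, 8.62 and 8.99 with CR, against 8.44, 8.49 and 8.49 without it, in *sus1*Δ cells. WT cells had 9.16, 8.63 and 9.26 with CR, against 8.77, 8.23 and 8.68 without it. Every culture was higher with CR than without, by 0.130 to 0.495 in *sus1*Δ, against 0.387 to 0.584 in WT cells. Neither change passed (adjusted p = 0.567 in *sus1*Δ and 0.0937 in WT from limma), whereas the WT change did with culture as a fixed block (0.46, adjusted p = 0.00443 from limma) and as a random block (adjusted p = 0.0129 from limma). No strain difference of *PRM4* was called.

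Counted over the 10 genes, CR raised 2 and lowered 0 in *sus1*Δ cells, where 1.39% of all genes rose and 0.147% fell, and raised 2 and lowered 1 in WT cells, where 9.4% rose and 9.01% fell. *PRM5* and *PRM10* rose at least 2-fold in both strains, against 0.496% of all genes in *sus1*Δ and 1.58% in WT cells. With culture 3 left out the WT counts were 2 and 0 (all genes, 9.49% and 6.09%). With culture as a block they were 5 and 1 (all genes, 14.9% and 15%). The median log2 change of the 10 was 0.09 in *sus1*Δ and 0.16 in WT cells, against -0.03 and -0.02 over all genes.

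Between the strains, 0 of the 10 were higher and 3 lower in *sus1*Δ cells with CR (all genes, 16.8% and 10.9%), and 0 higher and 2 lower without it (all genes, 14.3% and 7.08%). Without WT culture 3, 1 was higher and 7 lower with CR (all genes, 17.6% and 14%), and 1 higher and 6 lower without it (all genes, 20.9% and 10.4%). The median difference of the 10 was then -0.82 with CR and -0.69 without it, against 0.01 and 0.04 over all genes. In all arrays it was -0.58 with CR and -0.39 without, against 0.03 over all genes in each case. Of the 10, 8 belong to the 1362 genes with the lowest mean signal. The median *sus1*Δ minus WT difference of those 1362 genes was 0.178 with CR and 0.241 without it. The part of the signal floor in the differences of the members was not tested.

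In the same WT culture other mating genes were also lower. At least 2-fold lower in WT culture 3 than in the mean of the other WT cultures, with and without CR, were 35 of the 5449 genes (0.642%), 4 of the 10 *PRM* genes (40%) and 7 of 19 mating targets of Ste12 (36.8%). At least 2-fold higher in both were 13 genes (0.239%), *PRM7* among them. *FIG1*, which encodes a membrane protein of mating projections, had the greatest gap among lower genes, -4.77 with CR and -4.84 without it. In WT culture 3 *FIG1* read 3.62 with CR and 3.90 without it, under the low-signal limits of those arrays. That floor limits the size of its gap. *AGA1* and *AGA2*, the agglutinin genes, were lower by at least 2.09 and 2.27. The cell fusion gene *FUS1* was 8.67, 8.70 and 8.87 with CR in *sus1*Δ cells and 9.82, 9.68 and 8.04 with CR in WT cells. Of 25 pheromone signalling genes, 1 (4%) was lower by at least 2-fold in both conditions. It was the pheromone precursor gene *MFA1*, lower in WT culture 3 by 1.47 with CR and by 1.69 without it. The factor gene *STE12* itself was lower by 0.23 and 0.14. None of 23 Rlm1-dependent genes of the cell wall had a gap of at least 2-fold in both conditions. The gap of the *PRM* genes thus went with that of several mating targets of Ste12, and its source was not tested.

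**Figure D4:**
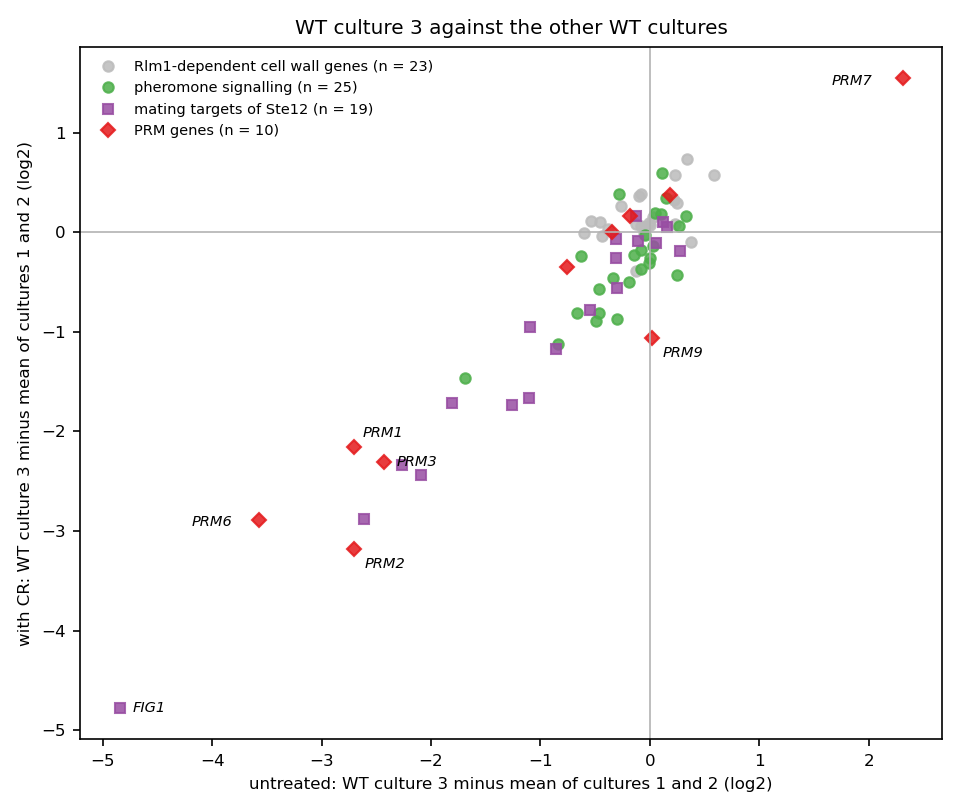
Log2 signal of WT culture 3 minus the mean of WT cultures 1 and 2, without CR (horizontal) and with CR (vertical), for genes of 4 lists. *PRM1*, *PRM2*, *PRM3*, *PRM6* and several mating targets lie far down and left, *FIG1* farthest, and *PRM7* lies up and right. None of the Rlm1-dependent genes has a gap of 2-fold in both conditions.

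The lists of the 2 pathways place the CR response of the members. Of 23 Rlm1-dependent genes, 20 rose in *sus1*Δ and 22 in WT cells, with median changes of 1.18 and 1.39. That list was written with genes the study selected on these arrays known, so its direction is not independent evidence. Of 25 pheromone signalling genes, 2 rose and 0 fell in *sus1*Δ cells (all genes, 1.39% and 0.147%). In WT cells 3 rose and 1 fell (all genes, 9.4% and 9.01%). *AFR1*, which encodes a regulator of pheromone receptor signalling and of the mating projection, rose by 1.71 in *sus1*Δ and by 2.23 in WT cells (limma, adjusted p = 0.000301 and 1.34e-05). *MSG5*, which encodes a phosphatase of the mating and CWI MAP kinases, rose by 0.85 and 1.17 (adjusted p = 0.00821 and 0.000258 from limma). The MAP kinase gene *KSS1* rose in WT cells (0.62, adjusted p = 0.00213 from limma) and was not called in *sus1*Δ cells. The pheromone exporter gene *STE6* fell by 0.29 in WT cells, a call lost without WT culture 3 (-0.20, adjusted p = 0.164 from limma). The difference between the responses of *KSS1* was not called. Of 19 mating targets, *CHS1*, a chitin synthase gene, rose in both strains (0.70 in *sus1*Δ and 1.16 in WT cells), and *GIC2* and *SCW10* rose in WT cells, while the others did not pass. With culture as a fixed block, *FIG1* (-0.33, adjusted p = 0.00574 from limma) and *HYM1* (0.31, adjusted p = 0.0147 from limma) passed too in WT cells, and *GIC2* (0.35, adjusted p = 0.0342 from limma) in *sus1*Δ cells, which made 2 higher and 0 lower in *sus1*Δ and 4 higher and 1 lower in WT cells. Of the signalling genes, *STE50* and *BAR1* were then also higher in WT cells, 5 in all, with 1 lower. The shares of all genes with this block were 2.53% higher and 1.05% lower in *sus1*Δ, and 14.9% and 15% in WT cells. *FIG1* lay under the low-signal limit on the arrays of WT culture 3.

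Between the strains, 1 of 19 mating targets was higher and 3 lower in *sus1*Δ cells with CR, and 1 higher and 2 lower without it. *KAR4*, which encodes a factor for karyogamy genes, differed by -1.07 in untreated cells (adjusted p = 0.0282 from limma), and the cyclin gene *PCL2* by -0.62 with CR (adjusted p = 0.00611 from limma). With culture 3 left out, 14 of 19 were lower with CR and 13 of 19 without it, with 1 higher in each. The shares of all genes in that fit were 17.6% higher and 14% lower with CR, and 20.9% and 10.4% without it. Among the pheromone signalling genes 1 was higher and 4 lower with CR, *MSG5* (-0.61) and *AFR1* (-0.57) among the lower, and 2 were higher and 1 lower without it. The 16.8% higher and 10.9% lower of all genes with CR, and 14.3% and 7.08% without it, stand beside the counts from all arrays. The signalling counts without WT culture 3 were 1 higher and 7 lower with CR and 3 higher and 5 lower without it.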

How the data were processed

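Transcripts were measured with Affymetrix GeneChip Yeast Genome 2.0 arrays, 1 for the treated and 1 for the untreated part of each culture. The authors deposited log2 values per probe set. According to the methods, RMA produced them from the scans, that is, with background correction, normalization between arrays and a summary over probes. Its version, and which arrays were normalized together, is not given in the sources used here. All columns were used as deposited, and 0 columns of per-sample values were left unused.

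Of 5739 probe sets, 5498 have 1 gene in the platform annotation and 241 are unnamed there. The brightest probe set stood for a gene and 49 further ones were left out, which gave 5449 genes. Coordinates are those of the R64 annotation of RefSeq. In R 4.3.3, limma 3.58.1 fitted the 4 group means to all 12 arrays and tested 5 contrasts, two-sided, with Benjamini-Hochberg adjustment over all genes. The steps were tested on simulated data.

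The methods state that each culture was divided, which pairs arrays within a strain. As a check, deviations from group means were correlated. They gave 0.247 to 0.716 in the 6 same-culture pairs and -0.0305 to 0.193 across strains for the same number. Within a strain for other numbers they gave -0.595 to -0.00134. Deviations from a group mean cancel within the group, so positive same-culture pairs make these other pairs negative on average. This last range is therefore no separate evidence.

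The members and gene lists were chosen with earlier results of these data known. Named beside the members were *SUS1*, their relatives, up to 4 called genes per list and comparison with a ratio of at least 1.5, and the 5 genes most correlated with *PRM5* and *PRM10*. *FIG1*, *FUS1*, *AGA1*, *AGA2*, *MFA1*, *STE12*, *STE6*, *GIC2*, *SCW10*, *HYM1*, *STE50*, *BAR1*, *MF(ALPHA)2*, the CR-treated strain difference of *AFR1* and the genes named in the closing section for WT culture 3 were chosen after their values were seen. Of the listed genes, 7 had no probe set under their name. With 3 arrays per group, the number of arrays limits the precision. Alternatives changed the test, the probe sets, a filter on low signal, the scaling, the arrays in the fit, the block, the variance model and the fold.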

Additional observations from a re-analysis of the deposited data

Results flagged for a closer look

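The difference between the CR responses of *PRM10*, *sus1*Δ minus WT, was -0.80 on the log2 scale. It drew attention because the 2 strains changed by different amounts under the same treatment. The test of that difference passed with culture as a block (adjusted p = 0.0394 from limma) and did not pass without it (adjusted p = 0.115 from limma). Among the other settings, it passed with culture as a random block (adjusted p = 0.0146 from limma), by the methods' t-test before adjustment and without WT untreated replicate 2 (-0.95, adjusted p = 0.0121 from limma). The change with CR was smaller in all 3 *sus1*Δ cultures than in any WT culture.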

How the results depend on the processing

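Of 1235 values of single members recomputed under an alternative, 1174 kept their side of the threshold, 36 passed where they had not before and 25 no longer passed. No called value turned its sign. Among the 1174 were 71 values that were not called and changed sign. *PRM5* and *PRM10* stayed called with CR in both strains wherever they were tested. Leaving out dim probe sets removed all members but *PRM4* and *PRM5* and gave 1 call in every comparison but the difference between responses, including the 2-fold counts with CR. With culture as a fixed replicate block the count with CR in WT was 6, against 3, and with a random replicate block it was 4, without *PRM1* and *PRM8*. The count for the difference between responses was 1 with either, against 0. Beyond *PRM1*, *PRM4* and *PRM8* with CR in WT and *PRM10* for the difference between responses, the fixed culture block changed no call of a member. The methods' t-test without adjustment called 5 with CR in *sus1*Δ, against 2, 1 in untreated cells, against 2, and 1 for the difference between responses. After adjustment it called 0 in untreated cells. A fit of only the compared groups called 1 there. Array weights called 4 between the strains in untreated cells, 2 of them past 2-fold, and 6 in CR-treated cells, 3 of them past 2-fold, against 2 and 3 with equal weights and 0 past 2-fold. Without both arrays of WT culture 3 the strain counts were 7 without CR and 8 with it, 5 of them past 2-fold in each case. Leaving out 1 array at a time gave 1 to 5 for untreated cells, with 5 without WT untreated replicate 3, and 0 to 3 past 2-fold. It gave 0 to 1 past 2-fold for CR-treated cells, and 0 to 1 for the difference between responses. The *PRM8* call in untreated cells was lost in 10 of the 12 such fits, and the *PRM9* call with CR in WT in 6 of them. The fit of only the compared groups was not run for the difference between responses. Shares of all genes were taken only for the main fit, the fixed culture block and the fit without WT culture 3. Under the other settings the calls over all genes may also differ, so those member counts are not read as results about the members. Apart from the added omission of culture 3 and the other *PRM7* probe set, the alternatives were set with the design.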

Other observations

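Among the 12 genes farthest below the other WT cultures in WT culture 3, 4 were *PRM* genes (*PRM6*, *PRM2*, *PRM3* and *PRM1*), with *FIG1*, *ASG7*, *AGA2*, *AGA1* and *FUS1*. The other 3 were genes of the Ty3 retrotransposon, *YGR109W-A*, *YIL082W-A* and *YGR109W-B*, whose smaller gaps of the 2 conditions were -3.91, -1.75 and -1.60. Ty3 is known to be transcribed in response to pheromone. Its copies are similar in sequence, so their probe sets may not be separate measurements. The same count of genes at least 2-fold lower in both conditions was 35 in WT culture 3, against 4 and 8 in WT cultures 1 and 2, each set against the other WT cultures, and 2, 1 and 0 in the *sus1*Δ cultures. The count at least 2-fold higher was 13 in WT culture 3, against 12 and 23 in WT cultures 1 and 2, with 1, 3 and 4 *PRM* genes among them. These counts share arrays, since a gap between culture 3 and the others enters the counts of every WT culture. Whether culture 3 was low or cultures 1 and 2 were high for these genes was not tested.

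Of the mating type markers, *STE3*, the receptor gene of the opposite mating type, read 6.74 to 6.98 with CR in *sus1*Δ cells, against 5.20 to 5.76 with CR in WT cells (log2 difference 1.39, adjusted p = 0.000136 from limma). Without CR the values were 6.69 to 6.92 in *sus1*Δ, against 5.17 to 5.59 in WT cells (1.47, adjusted p = 0.000118 from limma). The other 3 markers of that type, *MF(ALPHA)1*, *MF(ALPHA)2* and *SAG1*, were not called in either condition with all arrays. With WT culture 3 left out, *MF(ALPHA)2* was lower in *sus1*Δ cells (-0.39 with CR, -0.62 without). All *sus1*Δ values of *MF(ALPHA)2* lay under the low-signal limits of their arrays, so the floor limits these sizes. Of 5 early meiosis genes, *HOP1* (1.14, adjusted p = 0.00936 from limma) and *IME2* (0.64, adjusted p = 0.0435 from limma) were higher in *sus1*Δ than in WT cells without CR, and neither was called with CR. Without WT culture 3, 3 of the 5 were higher in untreated *sus1*Δ cells, *SPO11* (0.62) included, and *SPO11* was lower with CR (-0.64). Of all genes, that fit called 20.9% higher and 10.4% lower without CR, and 17.6% and 14% with it. Untreated *SPO11* was dim in both strains. Its *sus1*Δ signals were 5.363, 5.364 and 5.485, where the low-signal limits were 5.474, 5.491 and 5.364. WT cultures 1 and 2 gave 4.63 and 4.95, near their limits of 4.53 and 4.73. The floor thus limits the size of the untreated *SPO11* difference. In WT cells *IME2* (0.87, adjusted p = 0.0123 from limma) and *SPO11* (1.53, adjusted p = 0.0326 from limma) rose with CR, as did 9.4% of all genes. In WT culture 3 *SPO11* read only 4.77 with CR and 4.34 without it. Without that culture its rise was 2.08, and *HOP1* (0.92, adjusted p = 0.0026 from limma) was called too, with 9.49% of all genes higher. The low untreated signal of *SPO11* limits the size of its rise too.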
